A study of Mus musculus with 14 samples.

Results

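Tnnt3, Tpm2 and Atp2a1 encode 3 proteins of contraction and relaxation in skeletal muscle, and the poly(A) sites of their transcripts were followed through 14 mouse libraries. The sites were chosen by position, as all sites in 3 windows of the mm9 genome named after the genes, and the genes were picked because their main ends were high in skeletal muscle. The windows held 41 of the 159969 poly(A) sites found in the 14 libraries together, 13 in the Tnnt3 window, 12 in the Tpm2 window and 16 in the Atp2a1 window. Levels in muscle against other samples are therefore a description and were not tested.

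The libraries were made with 3P-seq, which captures and sequences the 3′ ends of polyadenylated RNA, so that a tag marks the end of 1 transcript and is not divided by transcript length. White adipose tissue, kidney, lung, liver, heart and skeletal muscle were each taken from wild-type mice and from miR-22 knockout mice (allele miR-22D in the protocol), with 1 library per tissue and genotype. Mouse embryonic stem cells (mESC) and 3T3 fibroblasts, an established line, gave 1 library each, and the labels give the 129S5/SvEvBrd background for all 14 samples. The labels do not give the age of the mice, how many animals went into a library, or the muscle sampled. Depth ran from 2036838 tags in the adipose knockout library to 6010465 tags in the lung knockout library. The muscle libraries held 4065757 tags in wild type and 2323440 in the knockout. Levels are tags per 1e+06 tags (CPM) over library sizes scaled by the trimmed mean of M-values (TMM). Shares and ratios are given with exact binomial 95% intervals, which cover counting error only.

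In a striated muscle fibre, tropomyosin lies along the actin filament and blocks myosin until calcium binds the troponin complex. Troponin T, the product of Tnnt3 in fast fibres, ties that complex to tropomyosin, and Tpm2 encodes beta-tropomyosin, which slow fibres hold as well. The fibre relaxes when a calcium pump returns calcium to the sarcoplasmic reticulum, and Atp2a1 encodes SERCA1, the pump of fast fibres. In rat, the beta-tropomyosin gene has alternative last exons, with the skeletal muscle exon upstream of the one used in smooth muscle and fibroblasts.

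The regulatory sequences are shown as background, because the 3 genes were all chosen for high levels in muscle and one genotype lacks miR-22. Transcripts of the 3 genes were not searched for miR-22 matches. RefSeq (GRCm38.p6) gave a promoter for 2 of the 3 genes, Tpm2 at chr4:43523505-43523804 on the minus strand and Atp2a1 at chr7:126463024-126463323 on the minus strand. Each runs from 250 bases before to 50 after the annotated start, 5′ to 3′, and the capitals mark an E-box, the sequence bound by myogenic basic helix-loop-helix factors.

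Tpm2 promoter: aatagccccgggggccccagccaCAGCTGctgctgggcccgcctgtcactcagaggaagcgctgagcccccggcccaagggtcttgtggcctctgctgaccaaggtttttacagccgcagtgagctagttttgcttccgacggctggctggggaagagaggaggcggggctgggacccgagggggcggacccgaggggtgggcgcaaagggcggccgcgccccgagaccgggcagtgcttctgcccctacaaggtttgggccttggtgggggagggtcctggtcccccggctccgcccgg

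Atp2a1 promoter: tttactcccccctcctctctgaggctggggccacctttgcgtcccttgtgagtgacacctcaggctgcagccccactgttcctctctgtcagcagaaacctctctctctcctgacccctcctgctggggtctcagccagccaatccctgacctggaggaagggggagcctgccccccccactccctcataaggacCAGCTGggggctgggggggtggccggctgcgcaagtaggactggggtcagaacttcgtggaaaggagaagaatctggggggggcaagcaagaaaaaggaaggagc

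The E-box letters searched were CANNTG, on both strands. Both promoters held 1 match, CAGCTG, at -227 from the start in Tpm2 and at -55 in Atp2a1. An E-box was present in 72.3% of the 32851 RefSeq promoters of this length, so that holding one is common. No match to MCAT (CATTCC, in 14.7% of promoters), the TATA box (TATAAA, 13.6%), the MEF2 element (3.19%) or the CArG box (1.63%) lay in either window. GC content was 70.3% for Tpm2 and 62.3% for Atp2a1, against a median of 52.7% over all promoters. The arms of the deleted microRNA follow, from the same source, with the seed (bases 2 to 8) in capitals.

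mmu-miR-22-3p: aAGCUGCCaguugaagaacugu

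mmu-miR-22-5p: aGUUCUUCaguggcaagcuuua

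The main Tnnt3 end spanned chr7:149701734-149701914 on the plus strand, with its most used position at 149701912. It read 39939.9 CPM in wild-type muscle and 40959 CPM in knockout muscle, and the 2 libraries differed less from each other than those of Tpm2 or Atp2a1. White adipose tissue followed with 108 CPM in wild type and 95.6 CPM in the knockout. Heart gave 0.446 and 1.67 CPM, lung 1.26 and 0.589 CPM, and kidney 0.230 and 0 CPM, each as wild type and then knockout. Liver had 0 tags in both libraries, mESC had 0 tags, and 3T3 read 0.544 CPM. Both muscle libraries thus lay above the other 12, a separation that the choice of the gene builds in. Both adipose libraries lay between muscle and the rest. The lower muscle library was 369.9-fold above the higher adipose library. It was 23866-fold above the highest library outside muscle and adipose, heart knockout with 5 tags. Against liver, with 3 tags per library as the floor, it was at least 42594-fold higher. Outside muscle and adipose tissue the tissue libraries held between 0 and 9 tags each, too few to order the tissues. The Tnnt3 end took 2.12% of all tags in wild-type muscle and 2.63% in knockout muscle. It ranked 6th among 23807 tested nuclear sites in both.

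The main Atp2a1 end spanned chr7:133589325-133589541 on the minus strand, most used at 133589371. It read 13365 CPM in wild-type muscle and 8387 CPM in knockout muscle, 10876 ± 3520.0 CPM (SD, n = 2). Adipose tissue gave 26.7 CPM in wild type and 18.1 CPM in the knockout. The calcium pump transcript was otherwise close to or at 0. Lung gave 0.560 CPM in wild type and 0.491 CPM in the knockout, kidney 0.230 and 0 CPM, liver 0 and 0.313 CPM, and mESC 0.322 CPM. Both heart libraries and 3T3 had 0 tags, although heart muscle also pumps calcium into a sarcoplasmic reticulum, with SERCA2 from another gene. The lower muscle library was 314-fold above the higher adipose library, and at least 6268-fold above heart with 3 tags per library as the floor. Both muscle libraries lay above all others, a separation that the choice of the gene for its muscle level builds in.

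Tpm2 had a pair of ends. The proximal end spanned chr4:43528489-43528601 on the minus strand, most used at 43528554. It read 5887 CPM in wild-type muscle and 11253 CPM in knockout muscle, 8570.0 ± 3795 CPM (SD, n = 2). Adipose tissue gave 19.6 CPM in wild type and 15.3 CPM in the knockout. This end followed the pattern of Tnnt3 and Atp2a1, apart from 3T3 cells, which read 3.81 CPM from 14 tags. Wild-type lung gave 0.280 CPM from 2 tags, and the other lung library, heart, liver, kidney and mESC had 0 tags. With 3 tags per library as the floor, the lower muscle library was at least 4399-fold above heart, 6278-fold above liver and 7357-fold above kidney.

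The distal Tpm2 end lay 986 nt downstream of the proximal end, at chr4:43527562-43527664, and was found in all 14 libraries. It read 80.0 CPM in wild-type muscle and 115 CPM in knockout muscle, 97.6 ± 24.9 CPM (SD, n = 2). The 3T3 library read 75.9 CPM, within 1.05-fold of the lower muscle library and inside 1 SD of the muscle mean. Lung gave 9.38 CPM in wild type and 12.8 CPM in the knockout, and mESC 7.73 CPM. Adipose tissue gave 4.60 and 4.82 CPM, kidney 3.45 and 2.40 CPM, heart 2.23 and 3.35 CPM, and liver 0.813 and 0.625 CPM. The order of the distal end was thus muscle with 3T3, then lung, mESC and adipose tissue, then kidney and heart, which overlapped, and liver. In muscle it ranked 1473rd in wild type and 882nd in the knockout among 23856 tested sites, where the proximal end ranked 26th and 17th. The 3′ end of the deposited interval with most tags differed slightly between libraries, also between libraries of the same tissue. An interval pools tags, so its end is not read as the position a library used. In kidney it was 43527568 and 43527581, in heart 43527579 and 43527580, and in liver 43527578 and 43527562, each as wild type and then knockout. These libraries held at most 15 tags. The deposited interval with most tags ended at 43527568 in both muscle libraries, mESC, 3T3 and knockout lung, at 43527578 in wild-type lung and knockout adipose tissue, and at 43527581 in wild-type adipose tissue.

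**Figure D1:**
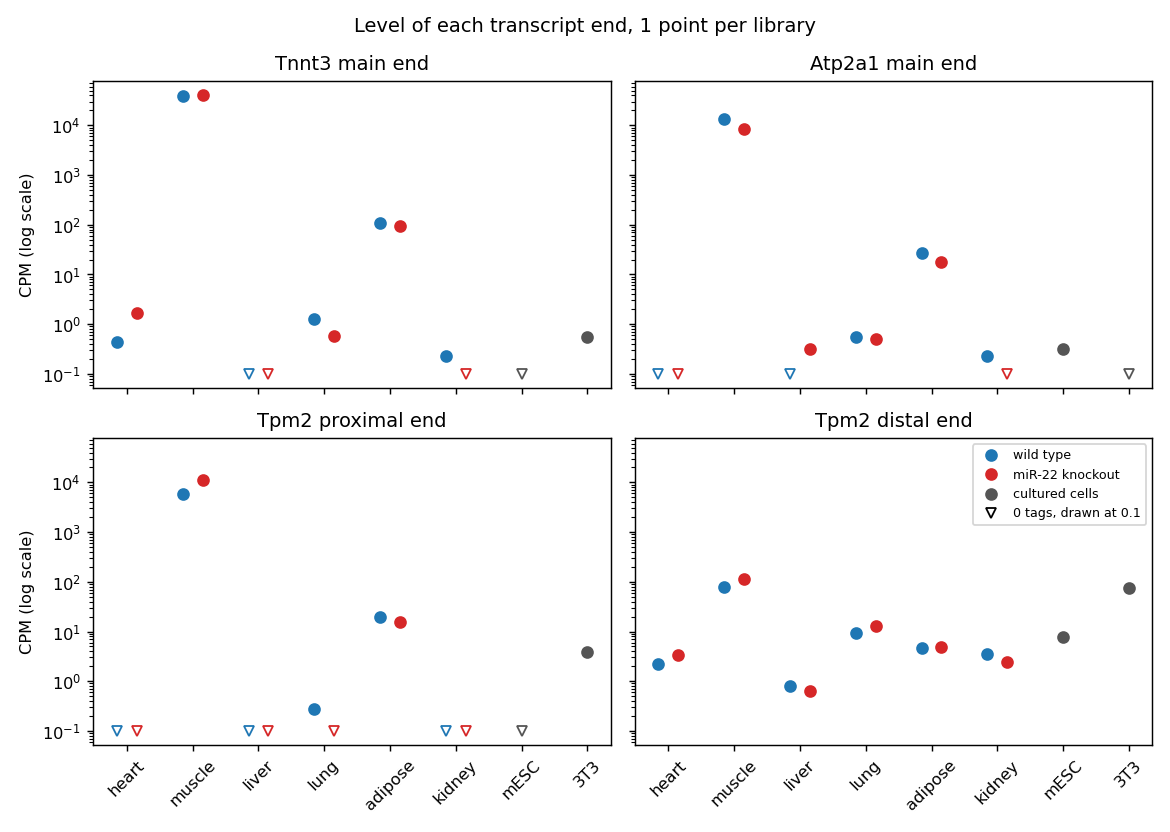
Level of the 4 leading ends in each of the 14 libraries, in CPM on a log axis, with wild type, knockout and cultured cells in separate colours and libraries without a tag drawn as open triangles at 0.1. Muscle stands above all other libraries for Tnnt3, Atp2a1 and the proximal Tpm2 end, with adipose next at 15.3 to 108 CPM, while the distal Tpm2 end reaches 75.9 CPM in 3T3.

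As tissues are mixtures of cells, fewer cells of a type and less RNA per cell cannot be told apart in any of these levels. Across the 14 libraries, log2(CPM + 1) of the Tnnt3 and Atp2a1 ends had a Pearson r of 0.992, Tnnt3 and proximal Tpm2 0.984, and proximal Tpm2 and Atp2a1 0.987. The distal Tpm2 end had r between 0.679 and 0.758 with the other 3. These correlations describe the libraries and rest mainly on the distance between muscle and the rest. Among 2214 sites with at least 50 CPM in a muscle library, the nearest in pattern to Tnnt3 was the site at chr11 position 67073941 on the plus strand, with r = 0.994. Next came chr7 positions 149630309 and 134357800, both on the plus strand, with r = 0.993 and 0.989. Nearest to the proximal Tpm2 end was chr14 position 21468329 on the minus strand, with r = 0.992, before chr2 position 152748781 (plus, 0.990) and chr11 position 67038074 (plus, 0.988). Nearest to Atp2a1 were chr11 position 67038074 with r = 0.997, and chr14 position 21468329 and chr7 position 149630309 with 0.996 each, sites that also stand on the Tpm2 or Tnnt3 list. Nearest to the distal Tpm2 end was chr4 position 87419146 on the minus strand, with r = 0.961, before chr11 position 78826942 (minus, 0.942) and chr1 position 14159034 (minus, 0.923). No annotation of mm9 was used, so these sites are given by position alone, and other genes of the contractile and calcium-handling pathways were not located here.

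The choice between the 2 Tpm2 ends does not depend on how libraries were scaled. In wild-type muscle 12729 of 12902 tags at both ends, 98.7% (98.4 to 98.9), were proximal, and in knockout muscle 16798 of 16970, 99.0% (98.8 to 99.1). Wild-type adipose tissue had 64 of 79 proximal tags, 81.0% (70.6 to 89.0), and knockout adipose 38 of 50, 76% (61.8 to 86.9). Muscle and adipose tissue were the samples in which most Tpm2 tags lay at the proximal end. Wild-type lung had 2 of 69 proximal tags, 2.90% (0.353 to 10.1), knockout lung 0 of 130 (upper bound 2.80%), and 3T3 14 of 293, 4.78% (2.64 to 7.89). Heart had 0 of 5 and 0 of 10 proximal tags, kidney 0 of 15 and 0 of 9, liver 0 of 3 and 0 of 2, and mESC 0 of 24. At so few tags the share in heart, liver and kidney is poorly bounded, and the upper bound in mESC was 14.2%.

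By tissue, the proximal share was 98.8 ± 0.231% in muscle, 78.5 ± 3.54% in adipose tissue and 1.45 ± 2.05% in lung (SD, n = 2 each). In a contrast of adipose tissue with the mean of heart, liver, lung and kidney, use of the 2 ends passed the threshold (edgeR quasi-likelihood test on both ends of 4452 neighbouring pairs, adjusted p = 1.95e-06). The background of that contrast was 6.4% of pairs called. Both adipose libraries had a higher proximal share than all 8 libraries of those 4 tissues. This p supports little beyond the shares themselves: the pair met the coverage minimum only through muscle, adipose tissue and lung, where one of its ends is high, and without any of these 3 pairs it gave no value. Heart, liver and kidney had 0 proximal tags, so most of the contrast is against counts of 0, and no fold is given. The 439 other muscle-high sites described below had a median of 3.12% and 3.18% of their muscle level in adipose tissue. The median was 16.1% and 13.5% in heart, 2.78% and 2.92% in lung, 2.03% and 2.09% in kidney, and 0.964% and 1.01% in liver. Each pair is wild type and then knockout. The part of muscle RNA in the end use of adipose tissue was not tested. The genotype term for the distal to proximal balance was 0.20 on the log2 scale (SE 0.579). It did not pass the same edgeR test (adjusted p = 0.982, background 0.0225% of pairs called). Only muscle and adipose tissue had proximal tags in both genotypes. From wild type to knockout their proximal shares went opposite ways, 98.7 to 99.0% in muscle and 81.0 to 76% in adipose tissue. The term thus describes no shift shared by the tissues.

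**Figure D2:**
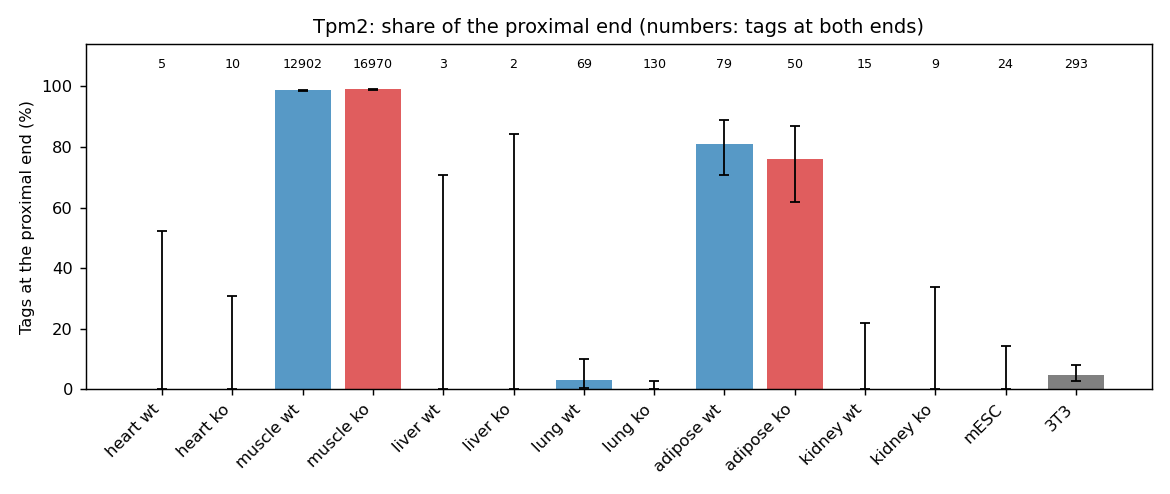
Share of Tpm2 tags at the proximal end in each library, in percent of the tags at both ends, with exact 95% intervals for counting error and the number of tags printed above each bar. Only muscle and adipose tissue lie above 50% among these libraries, and the intervals in heart and liver are wide because few tags were counted.

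The adipose signal of the members was set beside 439 other sites that were higher in muscle, chosen from these same data. Relative to its mean in muscle, Tnnt3 stood at 0.267% in wild-type and 0.236% in knockout adipose tissue. The proximal Tpm2 end stood at 0.229% and 0.178%, and Atp2a1 at 0.245% and 0.166%. The 3 main ends thus sat at like fractions of their muscle levels in adipose tissue, whereas the distal Tpm2 end stood at 4.71% and 4.94%. The median of the 439 sites was 3.12% in wild-type and 3.18% in knockout adipose tissue, 426 and 427 of them had a tag there, and their summed level was 19842 and 19394 CPM. In heart the median of these sites was 16.1% in wild type and 13.5% in the knockout, so heart carried many muscle-high transcripts but nearly none of the 3 main ends. In the mean of both heart libraries 30 of the 439 sites were at or under 0.01% of their muscle level. In single heart libraries Tnnt3 stood at 0.00110% and 0.00414% and the other main ends at 0. A subset of 23 sites stayed at or under 0.05% of their muscle level in every heart, liver, lung and kidney library. That cut was set after the values were seen. In adipose tissue those 23 sites had a median of 0.219% (0 to 1.18) in wild type and 0.305% (0 to 1.53) in the knockout. The members' adipose fractions lay inside these ranges, and whether muscle fibres were present in the adipose samples was not tested.

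The make-up of the tags at the 3 main ends is likewise free of library scaling. In wild-type muscle 67.5% (67.2 to 67.7) of 127995 such tags were Tnnt3, 22.6% (22.4 to 22.8) Atp2a1 and 9.94% (9.78 to 10.1) Tpm2. In knockout muscle 67.6% (67.3 to 67.9) of 90458 were Tnnt3, 13.8% (13.6 to 14.1) Atp2a1 and 18.6% (18.3 to 18.8) Tpm2. Tnnt3 thus held the same share within counting error in both muscle libraries, while Tpm2 and Atp2a1 changed places. The ratio of Tpm2 to Atp2a1 tags was 0.440 (0.431 to 0.450) in wild-type and 1.34 (1.31 to 1.37) in knockout muscle, a 3.05-fold difference between 2 libraries with no replicate check. In adipose tissue the ratio was 0.736 (0.524 to 1.03) in wild type and 0.844 (0.534 to 1.33) in the knockout, 1.15-fold apart with overlapping intervals. Tnnt3 led in adipose tissue too, with 70.0% (65.8 to 74.0) of 503 tags in wild type and 74.1% (69.0 to 78.8) of 321 in the knockout.

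**Figure D3:**
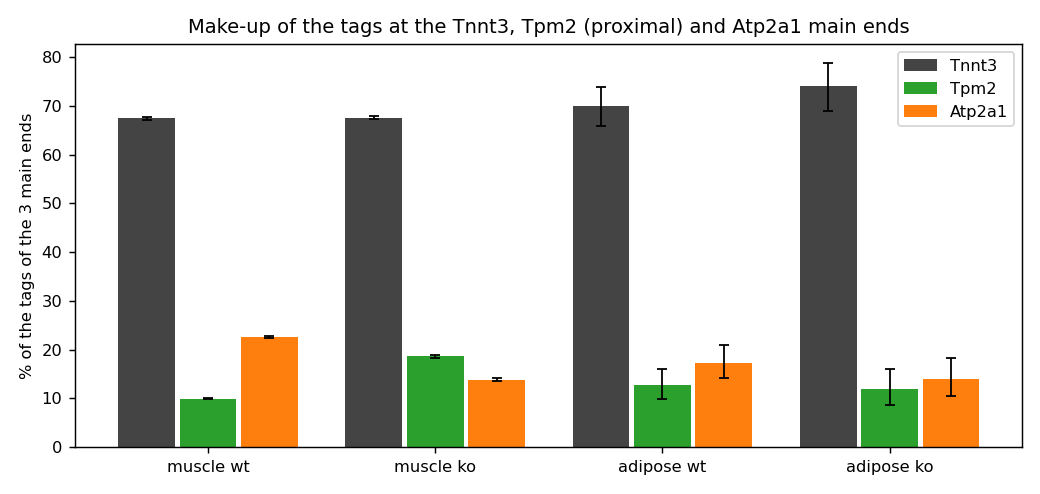
Percent of the tags at the 3 main ends that belong to Tnnt3, to the proximal Tpm2 end and to Atp2a1, in the muscle and adipose libraries, with exact 95% intervals for counting error. Tnnt3 makes up 67.5% and 67.6% in the muscle libraries, and the order of Tpm2 and Atp2a1 differs between them.

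Loss of miR-22 was tested with all 6 tissues in 1 model, with a term for tissue, so that the spread of the genotype effect between tissues is the error. No member site passed. The Tnnt3 end had a log2 difference, knockout minus wild type, of -0.14 (SE 0.356, edgeR adjusted p = 0.990), with 2 tissues higher, 3 lower and 1 equal. The proximal Tpm2 end had 0.15 (SE 0.476, edgeR adjusted p = 0.993), with 1 tissue higher, 2 lower and 3 equal at 0 tags. The distal Tpm2 end had 0.22 (SE 0.333, edgeR adjusted p = 0.972), with 4 tissues higher and 2 lower. Atp2a1 had -0.51 (SE 0.402, edgeR adjusted p = 0.897), with 1 tissue higher, 4 lower and 1 equal. These tallies rest largely on a few tags. Muscle and adipose tissue held the most tags at the main ends. Atp2a1 was lower in the knockout library of both, at 0.628 (0.614 to 0.641) and 0.677 (0.462 to 0.981) of wild type. Tnnt3 stood at 1.03 and 0.885, and the proximal Tpm2 end at 1.91 and 0.777. Each ratio is 1 library against 1, so no tendency across tissues can be read from them. For Atp2a1, liver had 0 tags in wild type and 1 in the knockout, kidney 1 and 0, and lung 4 and 5. For Tnnt3, heart had 1 and 5 tags, lung 9 and 6, and kidney 1 and 0. For the proximal Tpm2 end, lung had 2 and 0 tags, and heart, liver and kidney had 0. The effects at the 3 main ends thus rest mainly on the muscle and adipose pairs, although all 6 tissues entered the model. Of the 12 member sites that passed the low-count filter, 0 were called, and 0 had an unadjusted p under 0.05. The sites at 149688917, 149702453, 43528606, 133589577, 133599725 and 133599767 passed that filter only through muscle. They held at most 2 tags in any other tissue library. Their genotype effect rests on 1 muscle library against 1, so the spread between tissues says little about it. DESeq2 called 0 of the 5 sites to which it gave an adjusted p, and gave none to the other 7. The background was 82 of 23856 tested sites called, 0.344%, beside which 0 of 12 is no result about the members. Both small effects changed sign with the libraries in the fit, Tnnt3 to 0.07 without the lung pair and the proximal Tpm2 end to -0.60 without the muscle pair, and DESeq2 gave -0.47 for the latter. A p above the threshold does not show that the ends were equal.

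Within muscle, 1 library stood against 1. The proximal Tpm2 end was 1.91-fold (1.87 to 1.96) higher in the knockout, and the distal end 1.44-fold (1.16 to 1.79) higher. Atp2a1 stood at 0.628 (0.614 to 0.641) of its wild-type level, and Tnnt3 at 1.03 (1.01 to 1.04). Both Tpm2 ends were thus higher and Atp2a1 lower in the knockout library, by more than counting error. The median log2 ratio of the 4474 sites with at least 20 CPM in a muscle library was -0.27. Relative to it the proximal Tpm2 end lay 1.20 higher, the distal end 0.79 higher, Tnnt3 0.30 higher and Atp2a1 -0.40 from it. Among the 439 muscle-high sites the median was -0.32, and 12 of them (2.73%) were at least as high as the proximal Tpm2 end. Of the 4474 sites, 302 (6.75%) were. The list asks for a mean of 50 CPM and for both muscle libraries above the other tissue libraries, which favours sites where the muscle libraries agree. A smaller share far from the median is thus partly built in. At least as low as Atp2a1 were 118 of the 439 (26.9%) and 1238 of the 4474 (27.7%). Of the 9 member sites with at least 20 CPM, 2 were lower and 0 higher by 2-fold or more, beside a background of 20.8% of the 4474 sites past 2-fold in either direction. The 2 were the upstream site at 149680503 and the internal Atp2a1 site at 133599725, both described below. The site at 133599725 has a close neighbour that read higher in the knockout, and only the merging rule separates them.

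In adipose tissue the 3 main ends read lower in the knockout library, Tnnt3 at 0.885 (0.748 to 1.05), the proximal Tpm2 end at 0.777 (0.506 to 1.18) and Atp2a1 at 0.677 (0.462 to 0.981) of wild type. The interval excluded 1 for Atp2a1 alone. Of the 23 muscle-high sites nearly absent elsewhere, 6 were lower and 15 higher in knockout adipose tissue. The distal Tpm2 end in lung stood at 1.36 (1.01 to 1.86) of wild type.

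**Figure D4:**
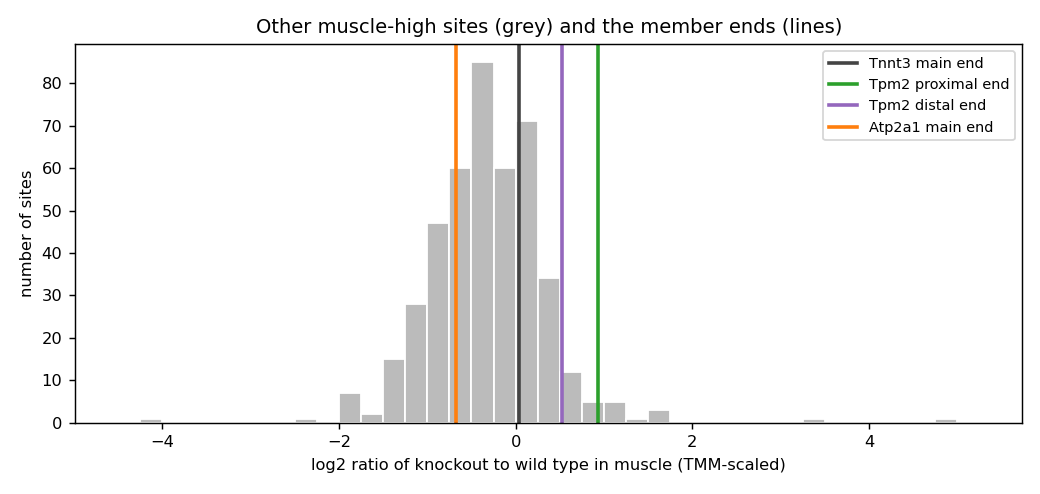
Distribution of the log2 ratio of knockout to wild type in muscle over 439 other muscle-high sites (grey, number of sites per bin), with lines at the 4 member ends. The proximal Tpm2 end at 0.93 lies in the upper tail of the list, Tnnt3 at 0.04 and Atp2a1 at -0.67 lie within the bulk. The choice of the list favours sites where the muscle libraries agree, so its narrow spread is partly built in.

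In muscle, transcripts of the 3 genes ended almost wholly at the main ends. The Tnnt3 main end held 86365 of 86456 gene tags in wild-type muscle and 61140 of 61192 in knockout muscle, both 99.9%. The Atp2a1 main end held 99.5% (99.4 to 99.6) in wild-type and 99.1% (99.0 to 99.3) in knockout muscle. Of the 41 sites, 12 passed the low-count filter, and the other 29 held 130 tags in all 14 libraries together, none more than 13. A cluster of minor sites lay inside Atp2a1. The site at 133599725 was 10354 nt upstream of the main end, with 54 tags in wild-type and 16 in knockout muscle, and the site at 133599767 was 10396 nt upstream, with 27 and 33 tags. These close neighbours differed in opposite directions between the muscle libraries, at scaled ratios of 0.429 (0.229 to 0.761) and 1.77 (1.03 to 3.06). Their intervals, 133599725-133599757 and 133599767-133599803, were counted apart because only overlapping or touching intervals were merged. Merging sites up to 24 nt apart would join them. The opposite directions therefore depend on that split and do not describe the joined interval, whose ratio was not computed. The site at 133589577, 206 nt upstream of the main end, read 14.8 and 26.1 CPM. The internal Tnnt3 site at 149688917, 12995 nt upstream of the main end, read 24.5 and 16.1 CPM in muscle and at most 0.307 CPM elsewhere. The Tnnt3 site at 149702453, downstream of the main end, and the Tpm2 site at 43528606, beside the proximal end, each read 6.94 and 8.04 CPM.

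**Figure D5:**
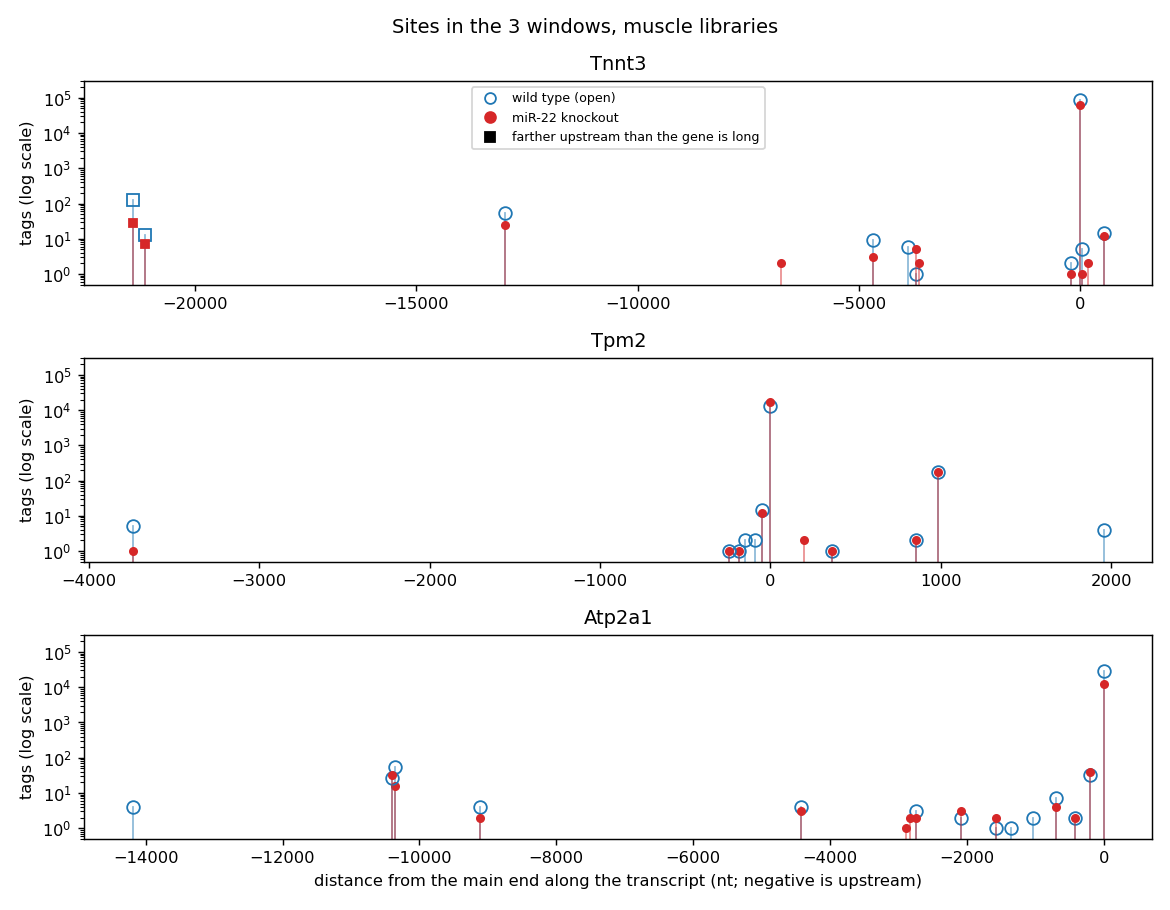
Sites of the 3 windows by distance from the main end along the transcript (nt, negative upstream) and tags in the muscle libraries (log axis), with wild type as open and knockout as filled symbols. The main ends stand far above all other sites, the distal Tpm2 end 986 nt downstream included, and squares mark the 2 sites farther upstream than Tnnt3 is long.

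A pair of sites in the Tnnt3 window lay outside the gene's annotated length of 17443 nt. They were at 149680503 and 149680771, which is 21409 and 21141 nt upstream of the main end. By RefSeq gene order the neighbour on that side and strand is Lsp1, which encodes a leukocyte-specific actin-binding protein. The site at 149680503 read 59.7 CPM in wild-type and 18.8 CPM in knockout muscle, a ratio of 0.314 (0.201 to 0.476). It was not highest in muscle: 3T3 read 97.4 CPM and lung 84.1 and 81.9 CPM, both above muscle. Heart read 38.4 and 27.1 CPM, adipose tissue 15.0 and 20.1 CPM, and kidney, liver and mESC between 1.56 and 4.27 CPM. It was therefore left out of the Tnnt3 gene totals.

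On the opposite strand, the Atp2a1 window held 5 sites. Of these, the site at chr7:133589381-133589429 overlapped the Atp2a1 main end by 49 nt and is described here. It held 4 tags in wild-type and 3 in knockout muscle, 9 and 24 in heart, 27 and 39 in adipose tissue, 35 and 26 in liver, 47 and 29 in kidney, 39 and 147 in lung, 62 in mESC and 72 in 3T3. Muscle, highest at the Atp2a1 end, was lowest at this site. By gene order the neighbour on that strand is Rabep2, which encodes an effector of Rab GTPases. The tags carry strand, so the 2 transcripts are counted apart. The Tpm2 window held 1 opposite-strand site, at chr4:43526508-43526624, with 33 and 32 tags in kidney and at most 2 in any other library, and the neighbour there is Car9, a carbonic anhydrase gene. The Tnnt3 window held 0.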

How the data were processed

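The authors deposited estimated counts of 3P-seq tags per poly(A) site, with 1 decimal, in 1 file per library. CASAVA 1.7, Bowtie and mm9 are named in the submitters' processing notes, and 13 of the 14 files name mm9 in their header. A header offset of 1 was not applied, so positions may differ by 1 nt. The sources used here do not say how fractional tags arose. Intervals that overlapped or touched on a strand were merged over the 14 libraries into 159969 sites.

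Rounded tags of the 12 tissue libraries were fitted with edgeR 4.0.16 (filterByExpr with a minimum of 10, TMM, quasi-likelihood test, a term per tissue and genotype) and adjusted by Benjamini-Hochberg over 23856 sites. Use of neighbouring sites 100 to 5000 nt apart was tested over 4452 pairs with at least 20 tags in 6 libraries and a mean share of at least 5% at each end. With 1 library per tissue and genotype, p-values rest on the spread between tissues. DESeq2 1.42.0, other scalings, filters and left-out tissues were alternatives. The scripts were tested on simulated data. The members and the list of muscle-high sites (adjusted p under 0.05, 4-fold, 50 CPM) were chosen with earlier results of these data known. Every site in the windows is counted, and named where it is a main end or passed the filter. The 3 nearest sites by correlation were computed for each main end. Gene lengths and neighbours come from RefSeq GRCm38.p6, promoter motifs from its 300-base windows. PCR copies cannot be told from molecules, so intervals cover counting error only. mESC and 3T3 enter no test. Tested sites held 92.5 to 98.7% of tags, and mitochondrial sites 2.43 to 31.3%.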

Additional observations from a re-analysis of the deposited data

Results flagged for a closer look

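Adipose tissue stood apart from the other non-muscle tissues at all 3 main ends. Among the 5 non-muscle libraries of a genotype, the adipose value was far from the nearest other value for Tnnt3 (108 CPM in wild type, 95.6 CPM in the knockout), the proximal Tpm2 end (19.6 and 15.3 CPM) and Atp2a1 (26.7 and 18.1 CPM). These are 6 flags among 9 groups of 5 libraries examined. The ends are not independent of each other, since all were chosen as high in muscle and are read from the same adipose libraries. At the 3 main ends the other non-muscle tissue libraries held between 0 and 9 tags each, so a modest count is enough to set a library apart. The muscle-high sites given beside the adipose values bear on the same libraries, and their part was not tested.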

How the results depend on the processing

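Of 206 alternative values, 177 were classed as the same, 19 as moved and 10 as reversed. The reversed values are genotype effects that changed sign. The moved values are levels, muscle ratios and counts of called sites, which changed in size and were not set against a threshold. Values classed as the same include levels, shares and counts, which have no direction. No genotype effect of a member site was called under any of 132 alternative values (smallest adjusted p = 0.672, and 7 had no adjusted p). The Tnnt3 genotype effect became 0.05 with total counts and 0.03 without a tissue term, with -0.28 to 0.07 when leaving out each tissue. Total counts moved the median of all tested sites by 0.19. The proximal Tpm2 effect became -0.02 with no filter and -0.47 with DESeq2, and ran from -0.60 (without the muscle pair) to 0.62 (without adipose) when leaving out each tissue. The effect at 43528606 became -0.11 with no filter and -0.32 with DESeq2. With DESeq2 the effects at 133599725 and 133599767 became 0.20 and -0.31. Of all sites, 66 were higher in the knockout, against 136 with total counts, 1 without a tissue term, 36 with DESeq2 and 9 to 104 when leaving out each tissue (kidney and lung, 38 without heart). The 16 lower became 0 without a tissue term, 25 with DESeq2 and 4 to 42 when leaving out each tissue (kidney and adipose, 8 without heart, 9 without muscle). With total counts the mean muscle CPM was 23779 for Tnnt3, 5180.5 for the proximal and 58.3 for the distal Tpm2 end, and 6249 for Atp2a1, and without mitochondrial sites 47159 for Tnnt3. The folds between muscle and other samples, and the percentages of muscle level, depend on TMM scaling. They were not recomputed with total counts. With total counts the muscle ratios were 1.24 for Tnnt3, 2.31 for the proximal Tpm2 end and 0.758 for Atp2a1, a shift of 0.27 on the log2 scale of every site. The causes of these moves were not tested. Summing all sites of a gene, an alternative added after seeing the data, kept every direction. Without the adipose, lung or muscle pair the Tpm2 ends no longer met the coverage minimum and gave no value. No paired analysis was possible because the labels carry no replicate numbers; wild-type and knockout libraries are matched only by tissue, through the term for tissue in the genotype model.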
